A study of Mus musculus with 6 samples.

Results

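Metallothioneins and zinc transporters are 10 genes of the mouse that hold, bring in or move out zinc, chosen by name: the metallothioneins Mt1, Mt2 and Mt3, the importers Slc39a1, Slc39a8 and Slc39a14, and the exporters Slc30a1, Slc30a2, Slc30a4 and Slc30a7. They are 10 of 30820 named genes on the array, and 14 of its 41174 probes carry them. Of these 14 probes, 13 were tested, each bright enough (well above background in red, or in green, on both arrays of some group). The remaining probe, a second one for Slc30a7, was above background in neither channel of any array.

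The study set 3 groups against young wild type mice on two-colour arrays of ventral prostate RNA, all on the FVB background. The groups were old wild type mice of 15 months, mice of the line fl26 at 2.5 months and mice of the line svb9 at 2.5 months. The fl26 line carries a transgene for full-length 15-LOX2, an enzyme that adds oxygen to arachidonic acid, and svb9 one for its splice variant b. Young wild type mice of 2.5 months gave the green channel of every array. Each group had 2 arrays (array 1 and array 2), and each genotype was represented by 1 transgenic line. Each array used pooled tissue, of 3 mice by the extraction protocol and of 6 mice by the design text. The promoter that drives the transgenes was not given in the sources used here, nor whether the same young pool served several arrays. With red always the group and green always young wild type, dye and group cannot be told apart in a comparison with young wild type. A dye effect cancels between the groups in the red channel.

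Metallothioneins are small cysteine-rich proteins that bind zinc, copper and other metals. Their genes are induced by zinc through MTF-1, a transcription factor that binds metal response elements, and by glucocorticoids and oxidative stress. Importers of the ZIP family (Slc39a genes) bring zinc into the cytosol, and exporters of the ZnT family (Slc30a genes) move it out of the cytosol, across the plasma membrane or into vesicles and the Golgi. The prostate as a whole is known for its high zinc content, and the zinc of the ventral lobe was not part of these data.

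Sequence windows of 250 bases before the starts listed in the RefSeq promoter table (GRCm38.p6) were searched for the core of the metal response element. The core is TGCACNC or TGCGCNC, searched on both strands, and windows were available for 9 of the 10 genes. The core was present in 21.4% of 32851 windows of the same length over all genes. The windows of Mt1, Mt2 and Slc30a1 are shown because these genes are the textbook targets of MTF-1, with the motif matches in capitals. The Mt1 window (chr8:94178839-94179088, plus strand) holds 1 match, the Mt2 window (chr8:94172368-94172617, plus strand) holds 3 and the Slc30a1 window (chr1:191906531-191906780, plus strand) holds 1.
Mt1: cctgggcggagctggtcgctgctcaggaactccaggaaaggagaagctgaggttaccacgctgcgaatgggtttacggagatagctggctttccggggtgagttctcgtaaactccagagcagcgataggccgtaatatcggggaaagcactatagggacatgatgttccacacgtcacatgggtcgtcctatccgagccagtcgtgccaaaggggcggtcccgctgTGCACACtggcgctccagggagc
Mt2: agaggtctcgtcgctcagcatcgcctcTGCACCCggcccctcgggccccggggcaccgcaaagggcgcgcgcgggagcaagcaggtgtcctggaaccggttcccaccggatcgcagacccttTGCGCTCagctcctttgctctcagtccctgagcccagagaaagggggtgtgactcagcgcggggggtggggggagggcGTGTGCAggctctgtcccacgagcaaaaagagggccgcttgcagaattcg
Slc30a1: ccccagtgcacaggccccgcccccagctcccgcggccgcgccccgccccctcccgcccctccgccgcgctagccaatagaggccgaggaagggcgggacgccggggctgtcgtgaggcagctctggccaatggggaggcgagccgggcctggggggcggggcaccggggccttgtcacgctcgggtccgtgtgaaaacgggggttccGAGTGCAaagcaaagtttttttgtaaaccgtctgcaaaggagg

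Among the other genes, the windows of Slc30a2 and Slc30a4 hold 2 matches each, 1 of the 2 windows of Slc39a8 holds 1 match, and the windows of Mt3, Slc39a1 and Slc30a7 hold 0. A match describes the letters of a window and not a bound site, and genes have other start sites than those in the table. By the gene coordinates of the same build, the Slc30a2 window and both Slc39a8 windows lie inside the gene. The Mt1 and Slc30a1 windows run past the first base of the gene (94178883 and 191906697), and their matches lie beyond it. These matches are therefore not upstream of the whole gene. Mt3, Mt2 and Mt1 lie next to each other on chromosome 8.

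The arrays differed in signal. In the red channel 3218 and 13597 probes stood well above background in old wild type, 27150 and 17620 in fl26 and 27832 and 14617 in svb9 (arrays 1 and 2), while the green channel had between 24835 and 30381. Old wild type array 1 stood apart: only the brighter Mt1 probe and the Mt2 probe were well above background in its red channel among the 14 probes, so every other member value of that array is a ratio against a red signal near background. Markers of ventral prostate secretion were above background in the green channel of all 6 arrays for 5 of 5 genes, and 5 of 7 markers of other lobes and the seminal vesicle were above it on no array. The secretory markers varied widely in ratio, with a median log2 ratio of 7.05 on old wild type array 1 (3 genes with a value) and between -1.34 and 1.19 on the other 5 arrays. Of the 5 secretory markers, 2 were saturated in green on all 6 arrays. Whether the ratios on old wild type array 1 come from the tissue or from the signal and its normalization was not tested. In bulk tissue, fewer cells of a type and less RNA per cell cannot be told apart.

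In the fit of the 3 group means none of the 10 genes passed the test in any comparison. With the replicate number of the arrays as a block, Mt2 and Slc39a8 passed in fl26 and Mt3 and Slc39a8 in old wild type, and Slc39a8 passed between old wild type and fl26. With the extraction date as a term, Slc30a2 passed in fl26. Both of these fits assume that the number or the date shifts all groups alike, and both leave few residual degrees of freedom. The labels describe no pairing of arrays by number. Values below are log2 ratios of a group over young wild type on the same array after loess normalization, and a probe is called when its adjusted p in limma is under 0.05 over all tested probes. Of the 13 member probes, 0 were called in old wild type (background over all tested probes 0%), 0 in fl26 (background 0.0503%) and 0 in svb9 (background 0%). With the replicate block 2 of 13 were called in old wild type (4.38% over all tested probes), 2 in fl26 (3.59%) and 1 between old wild type and fl26 (0.0905%). At an unadjusted p under 0.05 old wild type had 3 of 13 (11.4% over all probes), fl26 had 5 of 13 (10.2%) and svb9 had 0 of 13 (4.45%). These were Mt2, Mt3 and Slc39a8 in old wild type, and Mt2, Slc39a1, Slc30a2 and both probes of Slc39a8 in fl26. The median over the 10 main probes was 0.021 in old wild type (all probes -0.019), 0.15 in fl26 (all probes 0.00018) and -0.094 in svb9 (all probes -0.0031). The main probe of a gene is its probe with the highest mean signal. On both arrays of one group and both of the other, signs were opposite between old wild type and fl26 for 3 of 12 member probes (10.3% of all probes), between old wild type and svb9 for 1 of 12 (9.66%) and between fl26 and svb9 for 2 of 13 (5.79%).

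**Figure D1:**
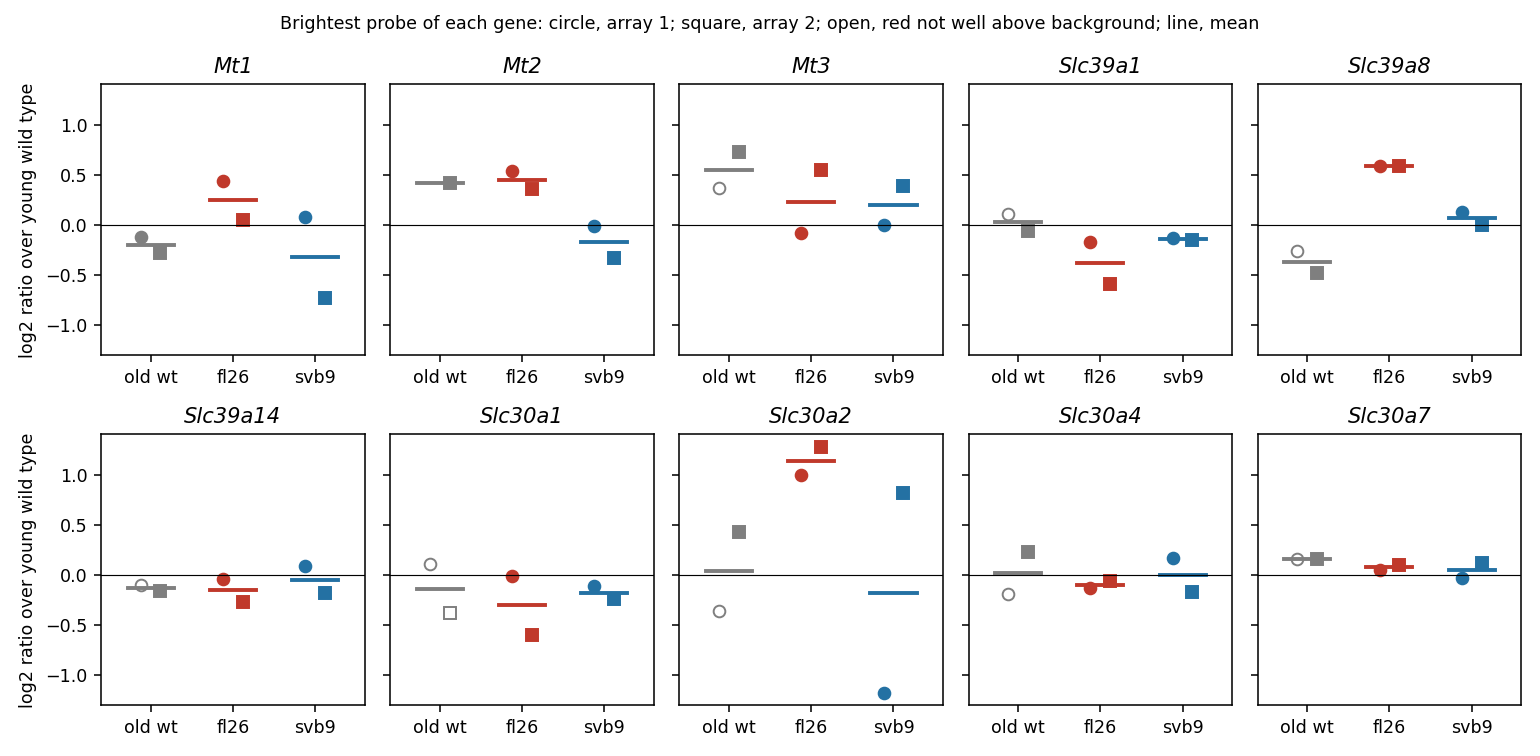
Log2 ratio over young wild type (y axis) of the main probe of each gene, in old wild type, fl26 and svb9 from left to right, with circles for array 1, squares for array 2, open symbols where the red signal was not well above background and a line at the group mean. Slc39a8 sits at 0.58 on both fl26 arrays, below 0 on both old wild type arrays and between 0.0026 and 0.13 in svb9, whereas the svb9 arrays of Slc30a2 lie at -1.18 and 0.81.

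Mt2, like Mt1 a widely expressed and inducible metallothionein, had a log2 ratio of 0.42 on old wild type array 2 and none on old wild type array 1, where the spot was an outlier. It had 0.54 and 0.35 in fl26 and -0.011 and -0.33 in svb9. Both fl26 arrays lay above 0 and both svb9 arrays at or below it, without overlap. The red signal of Mt2 was saturated on fl26 array 1. The mean in fl26 was 0.45 ± 0.11 (SE), a 1.36-fold ratio with a 95% interval of the log2 ratio between 0.17 and 0.73 (limma, unadjusted p = 0.00865, adjusted p = 0.312). With the replicate block the same mean passed the threshold (limma, adjusted p = 0.0418). With the extraction date as a term it was 0.37 (limma, adjusted p = 0.198), and over all alternatives the adjusted p ran between 0.0418 and 0.9998. The mean in svb9 was -0.17 ± 0.11 (limma, adjusted p = 0.980). The old wild type value rests on 1 array and has an adjusted p of 0.412 in limma, and median centring in place of loess turns it to -1.47.

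The difference in Mt2 between fl26 and svb9 was 0.62 ± 0.16 on the log2 scale, with a 95% interval between 0.23 and 1.01 (limma, unadjusted p = 0.00945, adjusted p = 0.999951). On the date that holds array 1 of both lines it was 0.55. None of the tested probes passed in this comparison (0% of 27858), so 0 of 13 member probes did, and 2 of 13 had an unadjusted p under 0.05, against 2.18% of all probes. Those 2 are Mt2 and the main probe of Slc39a8. The Mt2 difference of old wild type over svb9 was 0.59 (limma, adjusted p = 0.999920) and 0.75 on the date that the second arrays share, but -1.24 after median centring.

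Mt1 was read by a bright and a dim probe. The bright probe had log2 ratios of -0.12 and -0.29 in old wild type, 0.44 and 0.049 in fl26 and 0.079 and -0.73 in svb9. The arrays of each line spread widely, and those of svb9 stood on both sides of 0. It averaged -0.20 ± 0.19 (SE) in old wild type (limma, adjusted p = 0.729), 0.24 ± 0.19 in fl26 (adjusted p = 0.721) and -0.33 ± 0.19 in svb9 (adjusted p = 0.980). The dim probe had -0.0079 and 0.68 in old wild type, 0.11 and 0.21 in fl26 and -0.041 and 0.071 in svb9. Both probes were above 0 on both fl26 arrays, while on old wild type array 2 they took opposite signs, -0.29 and 0.68. The metallothioneins are closely related in sequence, and whether a probe also read RNA of another member was not tested.

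The 5 genes whose log2 ratios were most like those of the bright Mt1 probe over the 6 arrays, of 13235 compared, were Prrx1 with r = 0.997, Ccnd2 with 0.994, Stard4 with 0.981, Col1a1 with 0.979 and Ndufaf4 with 0.977. Prrx1 is a transcription factor of mesenchymal cells, and Col1a1 encodes a chain of type I collagen and is also in the list of fibroblast markers, there through another probe. The arrays share the young wild type channel by design, and some share a date, so these values of r describe 6 arrays only. They are the highest of 13235, and how high r would run without any link was not tested. Mt2 has values on 5 arrays and was not compared in this way. The fibroblast markers (5 of 5 tested) had a median log2 ratio of -0.27 and -0.48 in old wild type, 0.74 and -0.13 in fl26 and 0.22 and -0.22 in svb9. The summed level of these markers over that of young wild type ran between -0.62 and -0.29 in old wild type, between -0.19 and 0.42 in fl26 and between -0.22 and 0.051 in svb9, and 5 of 5 were above background in the green channel of all arrays. The part of fibroblast content in the Mt1 values was not tested.

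Mt3, known as the metallothionein of the brain, stood at 0.36 and 0.72 in old wild type, -0.084 and 0.55 in fl26 and 0.0023 and 0.39 in svb9. In each group array 2 was the higher, and the old wild type arrays overlapped with those of fl26. The green log2 signal of Mt3 after quantile normalization was lower on array 2 of each group. It was 8.08 and 7.91 on the old wild type arrays, 8.13 and 7.53 on those of fl26 and 8.12 and 7.57 on those of svb9. The part of the green channel in the Mt3 ratios was not tested. The old wild type mean of 0.54 ± 0.18 has a 95% interval between 0.11 and 0.97 (limma, unadjusted p = 0.0211, adjusted p = 0.342), and median centring turns it to -0.75. With the replicate block the mean passed the threshold (limma, adjusted p = 0.0220). With the extraction date as a term it was 0.37 (limma, adjusted p = 0.337, and between 0.0220 and 0.9715 over all alternatives). The means in fl26 and svb9 were 0.23 ± 0.18 and 0.20 ± 0.18 (limma, adjusted p = 0.711 and 0.980). Among the relatives outside the 10 genes, Mt4, the metallothionein of stratified epithelium, had means of 0.00083 in old wild type, 0.099 in line fl26 and 0.074 in line svb9. Mtf1, which encodes MTF-1, had 0.0028 in old wild type, 0.0042 in line fl26 and -0.021 in line svb9.

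**Figure D2:**
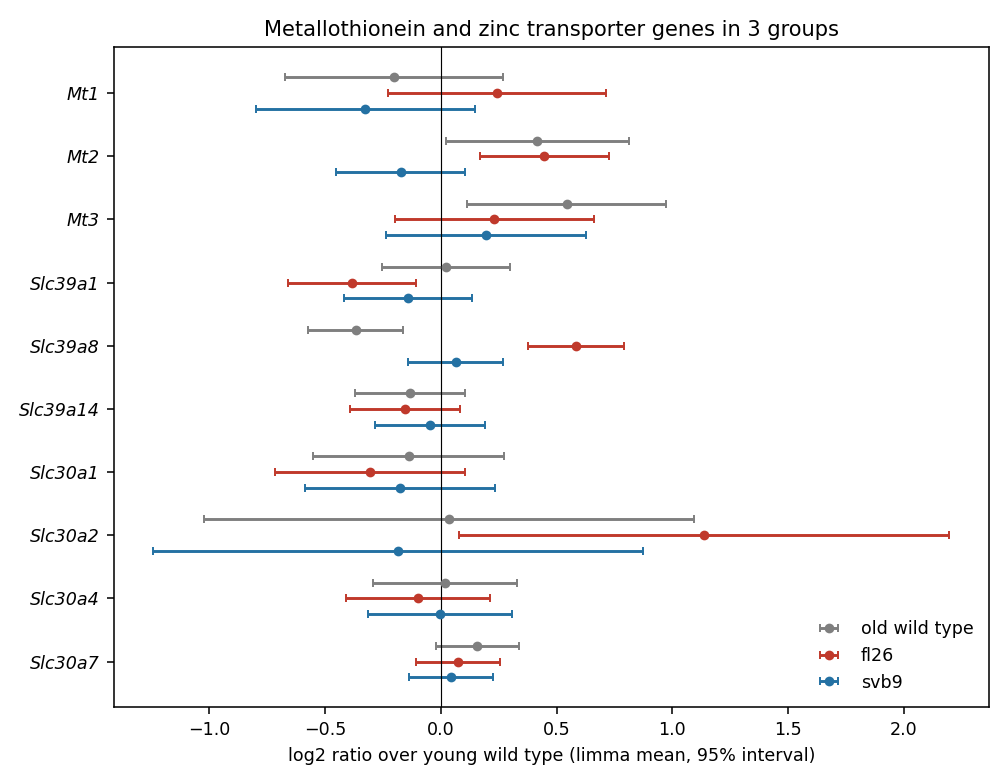
Mean log2 ratio over young wild type (x axis) with its 95% interval from limma for each gene, with old wild type above fl26 and fl26 above svb9. The intervals of Slc39a8, Mt2, Slc39a1 and Slc30a2 in fl26 and of Slc39a8, Mt2 and Mt3 in old wild type leave out 0 before adjustment, and the Mt2 and Mt3 values of old wild type turn to -1.47 and -0.75 after median centring.

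Slc39a8 encodes ZIP8, an importer of zinc, manganese, iron and cadmium at the cell surface. Its main probe had log2 ratios of -0.26 and -0.48 in old wild type, 0.58 and 0.58 in fl26 and 0.13 and 0.0026 in svb9. The 3 groups did not overlap in ratio, with fl26 highest and old wild type lowest. The young wild type channel of this probe also differed between arrays. Its green log2 signal after quantile normalization was 9.25 and 9.58 on the old wild type arrays. It was 8.88 and 9.01 on the fl26 arrays and 8.96 and 8.97 on the svb9 arrays. The part of the green channel in the Slc39a8 ratios was not tested. The mean in fl26 was 0.58 ± 0.08 (SE), a 1.50-fold ratio with a 95% interval of the log2 ratio between 0.38 and 0.79 (limma, unadjusted p = 0.000387, adjusted p = 0.166). The mean in old wild type was -0.37 ± 0.08, with a 95% interval between -0.57 and -0.16 (limma, unadjusted p = 0.00446, adjusted p = 0.228), and the red signal stood above background on array 2 only. In svb9 it was 0.065 ± 0.08, with an interval between -0.14 and 0.27 (limma, adjusted p = 0.984). With the replicate block the old wild type and fl26 means passed the threshold (limma, adjusted p = 0.0451 in old wild type and 0.0173 in fl26). With the extraction date as a term the means were -0.35, 0.53 and 0.10 in old wild type, fl26 and svb9 (limma, adjusted p = 0.267, 0.0771 and 0.892). Over all alternatives the adjusted p ran between 0.0451 and 0.8785 in old wild type and between 0.0173 and 0.9998 in fl26, where the mean stayed between 0.53 and 0.88. The old wild type mean stayed below 0 and moved more widely, to -2.09 after median centring, -0.68 with the deposited ratios and -0.26 without array 2.

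Between the groups, Slc39a8 was lower in old wild type than in fl26, with a log2 difference of -0.95 ± 0.12, with a 95% interval between -1.24 and -0.66 (limma, unadjusted p = 0.000173, adjusted p = 0.285). With the replicate block the same difference passed the threshold (limma, adjusted p = 0.0480). On the date that the 2 groups share it was -0.84, and without old wild type array 1 it was -1.06. In this comparison 0 of 13 member probes were called (0% of 27624), and 2 of 13 had an unadjusted p under 0.05, against 7.74% of all probes (Slc39a8 and Slc39a1). The Slc39a8 difference of old wild type over svb9 was -0.43 ± 0.12 (limma, unadjusted p = 0.0105, adjusted p = 0.999920), and -0.48 on the date they share. Here too 0 of 13 were called (0%), and 2 of 13 had an unadjusted p under 0.05 (Mt2 and Slc39a8, against 4.71% of all probes). The difference of fl26 over svb9 was 0.52 ± 0.12, with an interval between 0.23 and 0.81 (limma, unadjusted p = 0.0045, adjusted p = 0.999951), and 0.46 on the date they share.

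The second Slc39a8 probe is dim. It had -0.027 and -0.041 in old wild type, where its red signal was not well above background on either array, 0.21 and 0.14 in fl26 and -0.0053 and -0.012 in svb9. Its fl26 arrays were again the highest of the 6. The mean in fl26 was 0.18 ± 0.069 (limma, unadjusted p = 0.0429, adjusted p = 0.476).

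Markers of basal cells also lay above young wild type in fl26. Of 5 markers (Krt5, Krt14, Krt15, Trp63 and Col17a1), 5 were above 0 on both fl26 arrays, with a median log2 ratio of 0.74 and 0.32. The median was -0.12 and -0.22 in old wild type and -0.12 and 0.095 in svb9. Their summed level over that of young wild type lay between -0.11 and 0.75 in old wild type, between 0.45 and 0.66 in fl26 and between 0.039 and 0.29 in svb9. All 5 were above background in the green channel of all arrays. In limma 0 of 5 passed the test in fl26 (0.0503% over all tested probes). With the extraction date as a term 2 passed (0.434%), and with the replicate block 2 passed, Trp63 and Col17a1 (3.59%). In the red channel of old wild type array 1 only 1 of 5 was well above background. Of the macrophage markers, 5 of 5 and 3 of 5 were above 0 on the fl26 arrays, with a median of 0.48 and 0.024 and a summed level between 0.39 and 0.98. In old wild type their summed level lay between -0.12 and 0.34, and in svb9 between 0.019 and 0.26. The part of these cell types in the Slc39a8 values was not tested.

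**Figure D3:**
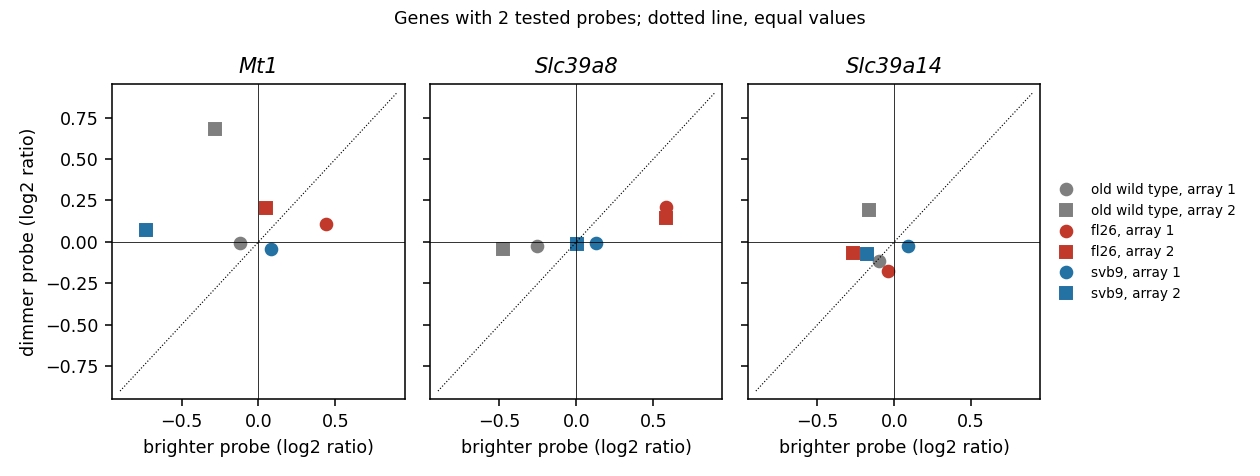
Log2 ratio over young wild type of the dimmer probe (y axis) against that of the brighter probe (x axis) on each of the 6 arrays, for the 3 genes with 2 tested probes; the dotted line marks equal values. Both Slc39a8 probes are highest on the 2 fl26 arrays, whereas the Mt1 probes take opposite signs on old wild type array 2.

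Slc39a1 encodes ZIP1, an importer expressed in most tissues. It had log2 ratios of 0.11 and -0.063 in old wild type, -0.17 and -0.59 in fl26 and -0.13 and -0.15 in svb9. Both arrays of each line lay below 0, and the svb9 arrays were above those of fl26. The mean in fl26 was -0.38 ± 0.11, with a 95% interval between -0.66 and -0.11 (limma, unadjusted p = 0.0146, adjusted p = 0.355), and -0.17 without array 2. With the extraction date as a term it was -0.41 (limma, adjusted p = 0.160, and between 0.0637 and 0.9998 over all alternatives). In svb9 the mean was -0.14 ± 0.11 (limma, adjusted p = 0.980). The difference of old wild type over fl26 was 0.41 ± 0.16 (limma, unadjusted p = 0.0439, adjusted p = 0.629), and 0.71 on the date they share, but -1.57 after median centring.

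Slc39a14 encodes ZIP14, an importer of zinc, iron and manganese. Its main probe had -0.10 and -0.16 in old wild type, -0.039 and -0.27 in fl26 and 0.087 and -0.18 in svb9. The groups overlapped, and the 3 means lay between -0.15 and -0.047 with an SE of 0.099 (limma, adjusted p between 0.652 and 0.991). The second, dim probe had values between -0.17 and 0.19 on the 6 arrays. Among the 9 tested of 11 other ZIP genes, 0 were called in any comparison in the fit of the group means. With the replicate block 1 was called (Slc39a7 in fl26, adjusted p = 0.0329 in limma), against 3.59% of all probes. Their median was 0.012 in old wild type, -0.022 in line fl26 and -0.014 in line svb9. At an unadjusted p under 0.05 in limma there were 0 of 9 in old wild type (11.4% over all probes), 2 in fl26 (both below 0, 10.2%) and 1 in svb9 (4.45%). Those furthest from 0 with 1 sign on both arrays were Slc39a7, the ZIP of the endoplasmic reticulum and Golgi, with -0.49 in fl26 (adjusted p = 0.273 in limma) and -0.35 in svb9 (adjusted p = 0.980), and Slc39a9 with -0.24 in fl26. Slc39a13 had 0.19 in old wild type and 0.18 in svb9, and Slc39a4 had 0.17 in old wild type.

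Slc30a2 encodes ZnT2, which loads zinc into the vesicles of secretory epithelium and is known for the zinc of milk. It had log2 ratios of -0.36 and 0.43 in old wild type, 0.998 and 1.28 in fl26 and -1.18 and 0.81 in svb9. Both fl26 arrays lay above all arrays of the other groups, and the arrays of svb9 and of old wild type each stood on both sides of 0. The mean in fl26 was 1.14 ± 0.44, a 2.20-fold ratio with a 95% interval of the log2 ratio between 0.080 and 2.20 (limma, unadjusted p = 0.0389, adjusted p = 0.464). With the extraction date as a term it was 1.60 ± 0.15 and passed the threshold (limma, adjusted p = 0.0281), as the only one of 13 member probes, against 0.434% of all tested probes in that fit. That fit has 1 residual degree of freedom for each probe with values on all arrays, and it assumes that a date shifts all groups alike. With the replicate block the mean stayed at 1.14 and did not pass the threshold (limma, adjusted p = 0.0548). Over all alternatives the adjusted p of Slc30a2 in fl26 ran between 0.0281 and 0.9998 and its mean between 0.998 and 1.60.

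Between fl26 and svb9 the Slc30a2 difference was 1.32 ± 0.62 (limma, adjusted p = 0.999951), and 2.18 on the date they share. That of old wild type over fl26 was -1.10 ± 0.62 (limma, adjusted p = 0.768), and -1.63 on the date they share. For old wild type over svb9 it was 0.22 ± 0.62 (limma, adjusted p = 0.999920), -0.39 on the date they share and -0.88 after median centring.

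The young wild type signal of Slc30a2 itself differed between arrays. After quantile normalization of the green channels its log2 signal ran between 7.03 and 8.23, a range of 1.21, where the median range over 26312 tested probes was 0.293. It was high on array 1 of each group and low on array 2 of each group. The other 9 genes had ranges between 0.245 and 0.705 with their main probes, and all but Slc30a7 (0.245) lay above that median. For Mt1, Slc39a1, Slc39a8 and Slc30a4 the green signal was higher on both old wild type arrays than on any other array. For Mt2 it was highest on old wild type array 2, with no value on array 1. The part of these green differences in the ratios was not tested. The secretory markers had a summed log2 ratio of -1.31 and 0.40 in fl26 and -1.39 and 1.07 in svb9, low on array 1 of each line. In old wild type it was 8.11 and 1.99. Their part in the Slc30a2 values was not tested.

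**Figure D4:**
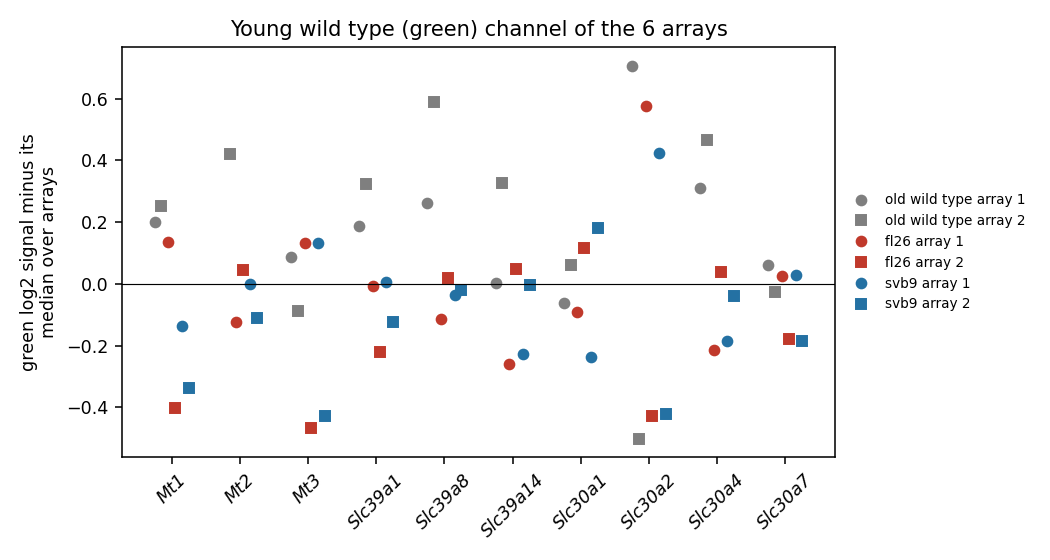
Green (young wild type) log2 signal of the main probe of each gene after quantile normalization, minus its median over the arrays (y axis), on the arrays of old wild type, fl26 and svb9, with circles for array 1 and squares for array 2. Slc30a2 spans 1.21 log2 units, more than any of the other 9 genes.

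Slc30a1 encodes ZnT1, the exporter at the plasma membrane and itself a target of MTF-1. It had log2 ratios of 0.10 and -0.38 in old wild type, -0.0083 and -0.60 in fl26 and -0.11 and -0.24 in svb9. In each group array 2 was the lower, and the groups overlapped. It averaged -0.14 ± 0.17 in old wild type (limma, adjusted p = 0.791), -0.30 ± 0.17 in fl26 (adjusted p = 0.603) and -0.18 ± 0.17 in svb9 (adjusted p = 0.980). Its red signal was not well above background on either old wild type array.

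Slc30a4 encodes ZnT4, an exporter into vesicles, and Slc30a7 encodes ZnT7, which moves zinc into the Golgi. Slc30a4 had -0.19 and 0.23 in old wild type, -0.13 and -0.066 in fl26 and 0.17 and -0.17 in svb9. Its 3 means lay between -0.0995 and 0.018, none past the threshold. Slc30a7 had 0.16 and 0.16 in old wild type, 0.053 and 0.099 in fl26 and -0.029 and 0.12 in svb9. Its mean in old wild type was 0.16 ± 0.075, with an interval between -0.022 and 0.34 (limma, adjusted p = 0.487), and -0.88 after median centring. Among the 4 tested of 6 other ZnT genes, 0 were called in any comparison in the fit of the group means. With the replicate block 1 was called (Slc30a8 in fl26, adjusted p = 0.0439 in limma), against 3.59% of all probes. Their median was 0.068 in old wild type, 0.17 in line fl26 and 0.084 in line svb9. At an unadjusted p under 0.05 in limma, 1 of 4 was found in old wild type (11.4% over all probes), 2 in line fl26 (10.2%) and 0 in line svb9 (4.45%). Slc30a5, which loads zinc into the early secretory pathway, had 0.37 in fl26 and 0.19 in svb9 (limma, adjusted p = 0.289 and 0.980). Slc30a8, the zinc transporter of insulin granules, had -0.54 in fl26, where its red signal was well above background on 0 arrays, and -0.18 in svb9, and Slc30a6 had 0.22 in old wild type.

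Genes linked to zinc by other routes gave no calls in the fit of the group means, and 5 in comparisons with young wild type with the replicate block. Of the copper and iron handling genes, 13 of 14 were tested in old wild type and 14 in each line, and their median log2 ratio was -0.12 in old wild type, 0.029 in line fl26 and 0.026 in line svb9. At an unadjusted p under 0.05 limma gave 5 of 13 in old wild type (11.4% over all probes), 2 of 14 in fl26 (10.2%) and 0 of 14 in svb9 (4.45%). In old wild type 6 of the 13 lay above 0 and 7 below. The copper pumps Atp7b and Atp7a had 0.70 and 0.44 in old wild type (limma, adjusted p = 0.239 and 0.257). The remaining 3 of the 5, named after their values were seen, lay below 0: Ccs, the copper chaperone of Sod1, had -0.43, the iron importer Slc11a2 had -0.31 and the copper chaperone Atox1 had -0.21. With the replicate block Atp7b and Ccs passed in old wild type (limma, adjusted p = 0.0266 and 0.0276), and Cp and Fth1 in fl26 (0.0296 and 0.0385). That fit called 4.38% and 3.59% of all tested probes in these 2 comparisons. Ceruloplasmin (Cp), the copper carrier of plasma, had 0.53 in fl26, where Slc11a2 had 0.27. The ferritin heavy chain (Fth1) had a mean of 0.46 in fl26, with 0.021 on array 1 and 0.90 on array 2 (limma, adjusted p = 0.628 without the block). In svb9 Fth1 had a mean of 0.53, with 0.13 and 0.92 (adjusted p = 0.980 in limma), and the copper transporter Slc31a2 had 0.39. Of 9 genes that respond to glucocorticoids, which also induce metallothioneins, 8 were tested and 0 were called. With the replicate block 1 was called (Cebpd in old wild type, adjusted p = 0.0266 in limma), against 4.38% of all probes. The median of the 8 was 0.016 in old wild type, 0.050 in line fl26 and 0.0025 in line svb9. At an unadjusted p under 0.05, limma gave 2 of 8 in old wild type (11.4% over all probes), 2 in line fl26 (10.2%) and 0 in line svb9 (4.45%). Cebpd had -0.55, Dusp1 0.30 and Fkbp5 0.27 in old wild type, where Dusp1 and Fkbp5 were the 2. The old wild type arrays of Cebpd had -0.18 and -0.92 (limma, adjusted p = 0.525 without the block), with red well above background on 1 of them. In fl26 Dusp1 had 0.25 and Errfi1 0.24, and in svb9 Cebpd had -0.37 and Tsc22d3 -0.23.

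**Figure D5:**
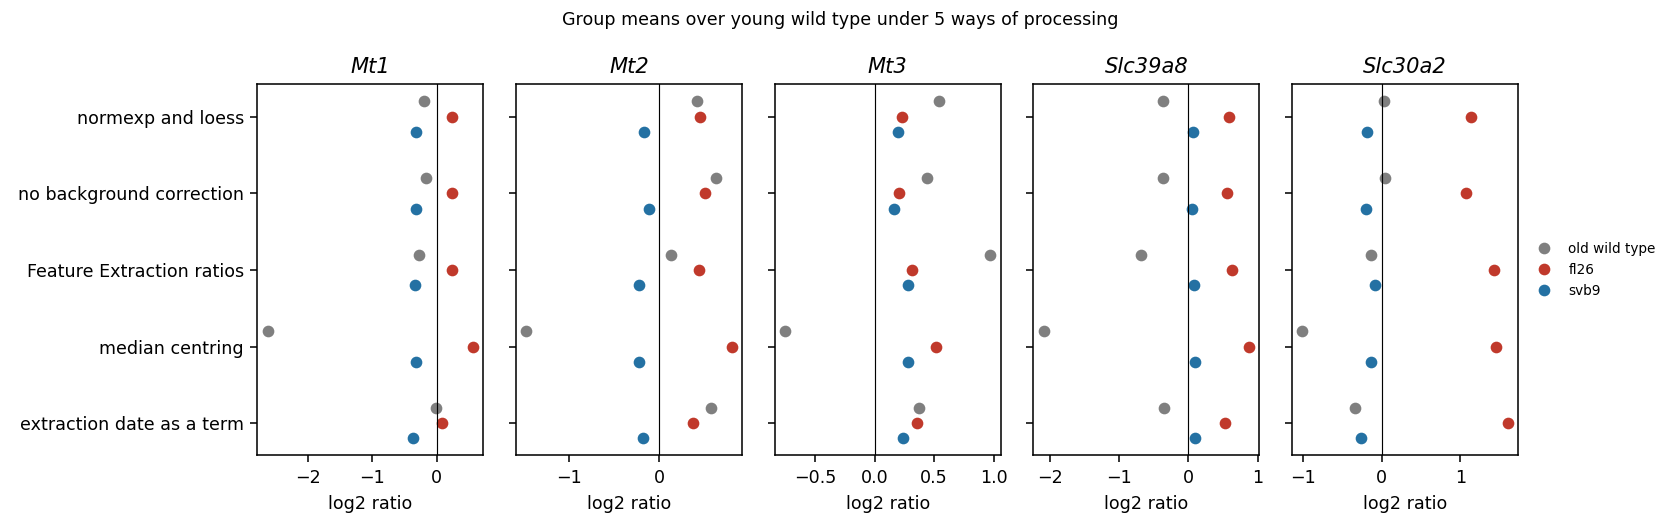
Mean log2 ratio over young wild type (x axis) of 5 genes in old wild type, fl26 and svb9 under 5 ways of processing (rows). The fl26 means of Slc39a8 and Slc30a2 stay above 0 in every row, and median centring moves the old wild type means of all 5 genes to -0.75 or lower.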

How the data were processed

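RNA of ventral prostate was hybridized to 6 two-colour Agilent whole mouse genome arrays, with young wild type in green (Cy3) and old wild type, fl26 or svb9 in red (Cy5), 2 arrays each. The deposited spot intensity values, a mean per spot and a median of the local background, are not normalized; per the file headers, Feature Extraction A.7.5.1 made them. That program also dye-normalized the deposited log10 ratios, per the headers of the files, and the deposited series table holds them rounded. No aligner or genome build is involved.

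With limma 3.58.1 (R 4.3.3), 2256 control spots of 43790 and outlier spots were left out, background was corrected by normexp with an offset of 50, arrays were normalized by loess and spots of a probe averaged. Group means over young wild type and differences between groups were tested with moderated statistics over all 6 arrays and Benjamini-Hochberg adjustment over all tested probes, 27858 in all and 27624 in comparisons with old wild type, at a threshold of 0.05. Results were checked with no background correction, the deposited ratios, median centring, other filters, extraction date and replicate number in the fit, and with each array left out. The labels describe no pairing by number, but same-numbered arrays deviated together from their group means (r = 0.331 for old wild type and fl26, 0.166 for old wild type and svb9 and 0.586 for fl26 and svb9, over 26014 probes), so calls that change with this number in the fit (the replicate block) are given both ways. The fit was tested on simulated data with noise drawn independently for each array. That test therefore does not cover arrays that deviate together. Whether replicate arrays came from separate mice rests on the design text, and only 6 arrays limit the precision. Differences between separate young wild type pools enter the ratios and their spread. Where arrays shared a young pool, which the sources do not give, tests against young wild type leave out the spread between young pools. Probes were named through RefSeq accessions (20716 probes, 11 of the 14 member probes) or kept the name in the file (20458). The extraction dates in the headers put array 1 of fl26 and of svb9 on 1 day, old wild type array 1 with fl26 array 2 on another, and old wild type array 2 with svb9 array 2 on the last.

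Named were all member genes, Mt4 and Mtf1, and the 5 genes most like Mt1. Of each other list of transporter, metal or glucocorticoid genes, those past the threshold were named, or else the 2 furthest from 0 whose arrays had 1 sign. Lists of cell type markers were read as sets, and not all of their single genes and calls are given. The members and lists were chosen with earlier results of these data known. A further list of metabolic genes is not reported here.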

Additional observations from a re-analysis of the deposited data

Results flagged for a closer look

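In 6 cases every array of 1 group lay on one side of 0 and every array of another on the opposite side. Over all probes with values this holds for 5.79% between fl26 and svb9, 10.3% between old wild type and fl26 and 9.66% between old wild type and svb9, and among member probes for 2 of 13 between fl26 and svb9, 3 of 12 between old wild type and fl26 and 1 of 12 between old wild type and svb9. None of these differences passed the threshold in limma after adjustment in the fit of the 3 group means, and with the replicate block 1 did, Slc39a8 between old wild type and fl26 (adjusted p = 0.0480).

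The main probe of Slc39a8 was below 0 in old wild type and above 0 in fl26, a difference of -0.951 on the log2 scale, and below 0 in old wild type and above 0 in svb9, a difference of -0.433. Its second probe was below 0 in old wild type and above 0 in fl26, a difference of -0.209, and above 0 in fl26 and below 0 in svb9, a difference of 0.184. Mt2 was above 0 in fl26 and below 0 in svb9, with a difference of 0.620. The bright Mt1 probe was below 0 in old wild type and above 0 in fl26, with a difference of -0.447. Some of these signs rest on values near 0. The second Slc39a8 probe had -0.0053 and -0.012 in svb9. In old wild type it had -0.027 and -0.041, with red not well above background on either array. The lower svb9 value of the main Slc39a8 probe was 0.0026, and the higher svb9 value of Mt2 was -0.011.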

How the results depend on the processing

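The count of member probes past the threshold was 0 in all 6 comparisons under each alternative run, leave-one-out included (range 0 to 0), with these exceptions. The date as a term called 1 in fl26 (Slc30a2, adjusted p = 0.0281 in limma). The replicate block called 2 in fl26 (Mt2, adjusted p = 0.0418, and Slc39a8, 0.0173), 2 in old wild type (Mt3, 0.0220, and Slc39a8, 0.0451) and 1 in old wild type minus fl26 (Slc39a8, 0.0480). It called 3.59%, 4.38% and 0.0905% of all tested probes in those comparisons. The block changed no other member call. Of 660 single-gene values, 605 kept their direction and side of the threshold, 6 passed it only in these 2 fits and 49 turned their sign. Over the tested probes the array medians lay between -0.447 and 0.353 after median centring, against -0.019 to 0.013 after loess. The centring itself used a wider set of spots. The cause of these changes was not tested. Median centring turned the sign to give in old wild type Mt2 -1.47, Mt3 -0.75, Slc39a1 -1.65, Slc30a2 -1.01, Slc30a4 -1.37 and Slc30a7 -0.88. It gave in fl26 Slc39a14 0.066 and Slc30a4 0.16, in svb9 Slc39a14 0.0086 and Slc30a4 0.052. Between groups it gave in old wild type minus fl26 Mt3 -1.26, Slc39a1 -1.57, Slc39a14 -1.13, Slc30a1 -0.59, Slc30a4 -1.53 and Slc30a7 -1.21, in old wild type minus svb9 Mt1 -2.31, Mt2 -1.24, Mt3 -1.03, Slc39a1 -1.55, Slc30a1 -0.53, Slc30a2 -0.88, Slc30a4 -1.42 and Slc30a7 -0.996, in fl26 minus svb9 Slc39a1 0.014, Slc39a14 0.057, Slc30a1 0.059 and Slc30a4 0.10. The deposited ratios turned the sign to give in old wild type Slc30a2 -0.14 and Slc30a4 -0.27, in old wild type minus fl26 Slc39a14 -0.21, Slc30a1 -0.019 and Slc30a4 -0.14, in old wild type minus svb9 Slc30a1 -0.26, Slc30a2 -0.056 and Slc30a4 -0.25, in fl26 minus svb9 Slc30a7 -0.0035. Extraction date as a term turned the sign to give in old wild type Slc30a2 -0.34, in old wild type minus fl26 Mt2 0.20, in old wild type minus svb9 Slc39a14 0.025 and Slc30a2 -0.076. No background correction turned the sign to give in old wild type Slc39a1 -0.014 and Slc30a4 -0.012, in old wild type minus fl26 Mt2 0.12. Keeping outlier spots turned the sign to give in old wild type Slc39a1 -0.00036, in old wild type minus fl26 Mt2 0.0025, in old wild type minus svb9 Mt1 -0.017. Leaving out saturated spots turned the sign to give in old wild type minus fl26 Mt2 0.063. The replicate block turned the sign to give in old wild type minus fl26 Mt2 0.097.

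With each array left out, the sign turned within these ranges of the log2 ratio: in old wild type Slc39a1 -0.063 to 0.11, Slc30a1 -0.38 to 0.10, Slc30a2 -0.36 to 0.43, Slc30a4 -0.19 to 0.23; in fl26 Mt3 -0.084 to 0.55; in svb9 Mt1 -0.73 to 0.079, Slc39a14 -0.18 to 0.087, Slc30a2 -1.18 to 0.81, Slc30a4 -0.17 to 0.17, Slc30a7 -0.029 to 0.12; in old wild type minus fl26 Mt2 -0.12 to 0.063, Mt3 -0.0019 to 0.63, Slc39a14 -0.093 to 0.14, Slc30a1 -0.13 to 0.46, Slc30a4 -0.091 to 0.33; in old wild type minus svb9 Mt1 -0.28 to 0.53, Slc39a14 -0.22 to 0.048, Slc30a1 -0.21 to 0.28, Slc30a2 -0.78 to 1.21, Slc30a4 -0.19 to 0.23; in fl26 minus svb9 Mt3 -0.28 to 0.35, Slc39a14 -0.24 to 0.026, Slc30a1 -0.42 to 0.17, Slc30a4 -0.27 to 0.075, Slc30a7 -0.044 to 0.10. Mt2 in old wild type has no value without array 2. Signal limits the values of old wild type array 1, where 2 of 14 member probes were well above background in red.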
